A study of Mus musculus with 38 samples.

Results

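Stretch and stress genes of cardiomyocytes were followed in the left ventricle of a mouse model of HFpEF, the form of heart failure in which the ejection fraction is preserved. The 8 genes were chosen by name, Abra, Ankrd1, Ankrd23, Acta1, Xirp1, Xirp2, Csrp3 and Nrap, and each is 1 row of the 29564 genes in the count and TPM tables. All 8 passed the filter on low counts, as did 13765 genes in all, and the lowest count of any of them in any library was 780 reads, for Abra. RNA-seq was done on left ventricles of 38 wild-type C57BL6 mice, 1 library per mouse. Non_failing mice (n = 8) received vehicle. HFpEF was induced by a high-fat diet together with L-NAME, an inhibitor of nitric oxide synthesis, and the mice then received vehicle (HFpEF+Veh, n = 8), TYA-018 at 15 mg/kg (HFpEF+TYA-018, n = 11) or empagliflozin at 10 mg/kg (HFpEF+SGLT2i, n = 11) by mouth, for 9 weeks by the study's methods and 3 months by the title of the data. TYA-018 inhibits the cytoplasmic deacetylase HDAC6, and empagliflozin inhibits the renal glucose transporter SGLT2. The diet and L-NAME were not given separately, and the age at sampling was not given in the sources used here. The labels call the mice female and the methods call them male, and sex was not used in any test. The study asked about HDAC6 in HFpEF, and in this experiment TYA-018 was set beside empagliflozin.

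The proteins of these genes sit where a cardiomyocyte senses load: on titin in the sarcomere, at the Z-disc and at the intercalated disc, which joins neighbouring cells. Abra (also called STARS) binds actin and promotes signalling through the transcription factor SRF. Ankrd1 and Ankrd23 belong to the muscle ankyrin repeat proteins, which bind titin and also enter the nucleus. Acta1 encodes skeletal alpha-actin, the actin isoform of skeletal muscle that the fetal heart also uses and that the overloaded adult heart makes again. Xirp1 and Xirp2 encode Xin proteins, which bind actin at the intercalated disc. Csrp3 encodes muscle LIM protein of the Z-disc, and Nrap encodes a nebulin-related protein that anchors actin filaments at the cell ends.

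In units of 1000000, the libraries held 21.5 to 59.3 counts (median 29.5), and mitochondrially encoded genes took 28.5% to 39.5% of them. Defining cardiomyocyte markers were high in every library, with the lowest Myh6 level at 333 TPM (transcripts per 1000000, a unit divided by transcript length). A pair of HFpEF+Veh libraries stood apart. V2523 carried hepatocyte transcripts, at 1352 TPM over 12 markers against a median of 4.14 TPM in its group, and V2532 carried fast skeletal muscle transcripts, with Tnnt3 at 16.9, Pvalb at 13.3 and Myh4 at 7.84 TPM where the group medians were 0.568, 0.0531 and 0.00. The hepatocyte sum was 20.2 to 323 TPM in the non_failing libraries, highest in V2504, and 0.601 to 8.11 TPM in the treated groups. For the 8 genes, differences that rest on HFpEF+Veh are given with and without this pair, and pathway and marker lists by their calls. Without the pair 916 of 13871 genes were called in HFpEF+Veh against non_failing (433 with it), 90 in HFpEF+TYA-018 against HFpEF+Veh (266 with it) and 20 in HFpEF+SGLT2i against HFpEF+Veh (117 with it). In these bulk samples, fewer cells of a type and less RNA per cell cannot be told apart.

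All 8 genes are protein-coding in GENCODE M21 on GRCm38, the assembly of the authors' quantification. Acta1 is at chr8:123891769-123894751, Ankrd1 at chr19:36111961-36120099, Ankrd23 at chr1:36530188-36536883, Abra at chr15:41864076-41869720, Xirp1 at chr9:120013755-120023598, Csrp3 at chr7:48830398-48848033 and Nrap at chr19:56320035-56390037, all on the minus strand, and Xirp2 is at chr2:67446002-67526614 on the plus strand. Exons of Ankrd23 overlap those of the annotated gene Gm42417 on the same strand, so reads there could be divided between them. The coding sequence of Acta1 is close to those of the other actin genes, and its reads could be divided with Actc1 or Acta2 likewise.

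RefSeq promoter windows (GRCm38.p6) were matched for 6 of the 8 genes, all but Abra and Xirp1, and those of 4 are given here, since Acta1 rose in every HFpEF group and Ankrd23 both rose and fell, with Ankrd1 as the other ankyrin repeat gene and Xirp2 for its motifs. Each window runs 5′ to 3′ on the strand of the gene, from 250 bases before the annotated start to 50 after it. Capitals mark matches to the motifs searched on both strands: the CArG box that SRF binds, the MCAT core CATTCC that TEAD factors bind, TATAAA, the AP-1 site TGANTCA and the MEF2 site.
Acta1, chr8:123894726-123895025, minus strand: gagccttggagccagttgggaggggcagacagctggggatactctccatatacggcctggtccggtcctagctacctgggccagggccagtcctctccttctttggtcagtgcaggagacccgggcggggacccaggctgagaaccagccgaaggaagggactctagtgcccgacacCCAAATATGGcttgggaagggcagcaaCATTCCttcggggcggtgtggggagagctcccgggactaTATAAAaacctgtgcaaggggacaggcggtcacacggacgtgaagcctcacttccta
Ankrd1, chr19:36119795-36120094, minus strand: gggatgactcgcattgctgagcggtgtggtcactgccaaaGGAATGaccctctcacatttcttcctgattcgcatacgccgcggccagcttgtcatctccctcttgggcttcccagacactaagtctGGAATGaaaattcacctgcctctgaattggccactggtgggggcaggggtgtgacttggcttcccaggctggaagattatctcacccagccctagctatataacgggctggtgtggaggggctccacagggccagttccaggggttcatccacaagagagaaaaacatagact
Ankrd23, chr1:36536507-36536806, minus strand: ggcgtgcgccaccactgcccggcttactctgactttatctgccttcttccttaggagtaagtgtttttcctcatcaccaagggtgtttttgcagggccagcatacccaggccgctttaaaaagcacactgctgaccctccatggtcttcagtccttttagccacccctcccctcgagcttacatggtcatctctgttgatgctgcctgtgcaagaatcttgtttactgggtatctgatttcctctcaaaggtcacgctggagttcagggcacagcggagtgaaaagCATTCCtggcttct
Ankrd23, chr1:36535690-36535989, minus strand: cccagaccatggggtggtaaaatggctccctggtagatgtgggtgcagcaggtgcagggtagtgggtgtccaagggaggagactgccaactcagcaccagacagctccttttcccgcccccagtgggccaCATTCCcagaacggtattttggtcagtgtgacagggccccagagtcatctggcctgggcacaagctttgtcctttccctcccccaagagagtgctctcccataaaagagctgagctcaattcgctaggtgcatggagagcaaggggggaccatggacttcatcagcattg
Xirp2, chr2:67445752-67446051, plus strand: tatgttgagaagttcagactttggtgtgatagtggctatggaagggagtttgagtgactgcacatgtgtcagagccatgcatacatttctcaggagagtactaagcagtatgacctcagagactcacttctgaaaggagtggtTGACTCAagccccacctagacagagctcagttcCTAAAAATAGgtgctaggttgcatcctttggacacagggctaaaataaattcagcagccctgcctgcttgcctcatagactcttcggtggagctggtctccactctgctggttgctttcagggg

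In the Acta1 window, the CArG box was at bases -73 to -64, the MCAT core at -46 to -41 and TATAAA at -7 to -2, counted from the annotated start as +1. Of 32851 windows in the table, 1.63% held a CArG box, 14.7% an MCAT core and 13.6% TATAAA. The Ankrd1 window held a pair of MCAT cores on the opposite strand, at -210 to -205 and -123 to -118, and each Ankrd23 window held 1, at 37 to 42 and at -120 to -115. The Xirp2 window held an AP-1 site at -107 to -101, a motif in 7.81% of windows, and a MEF2 site at -74 to -65, a motif in 0.557%. None of these letters was in the windows of Csrp3 and Nrap. These are matches of letters and no binding was measured.

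By level, the 8 genes fell into the same rough order in every group. Csrp3 was the most abundant by far, with a group median between 990 and 1083 TPM, which placed it at rank 63 to 65 of all genes. Xirp1 and Xirp2 were the least abundant, with medians of 20.5 and 17.2 TPM in non_failing hearts. Acta1 had the fourth highest median in non_failing, close to Nrap (Acta1 exceeded Nrap in 5 of 8 libraries), and in HFpEF+Veh it lay level with Ankrd1 (above it in 4 of 8 libraries) and below Ankrd23 in 7 of 8. In HFpEF+TYA-018 Acta1 was above Ankrd23 in 9 of 11 libraries.

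**Figure D1:**
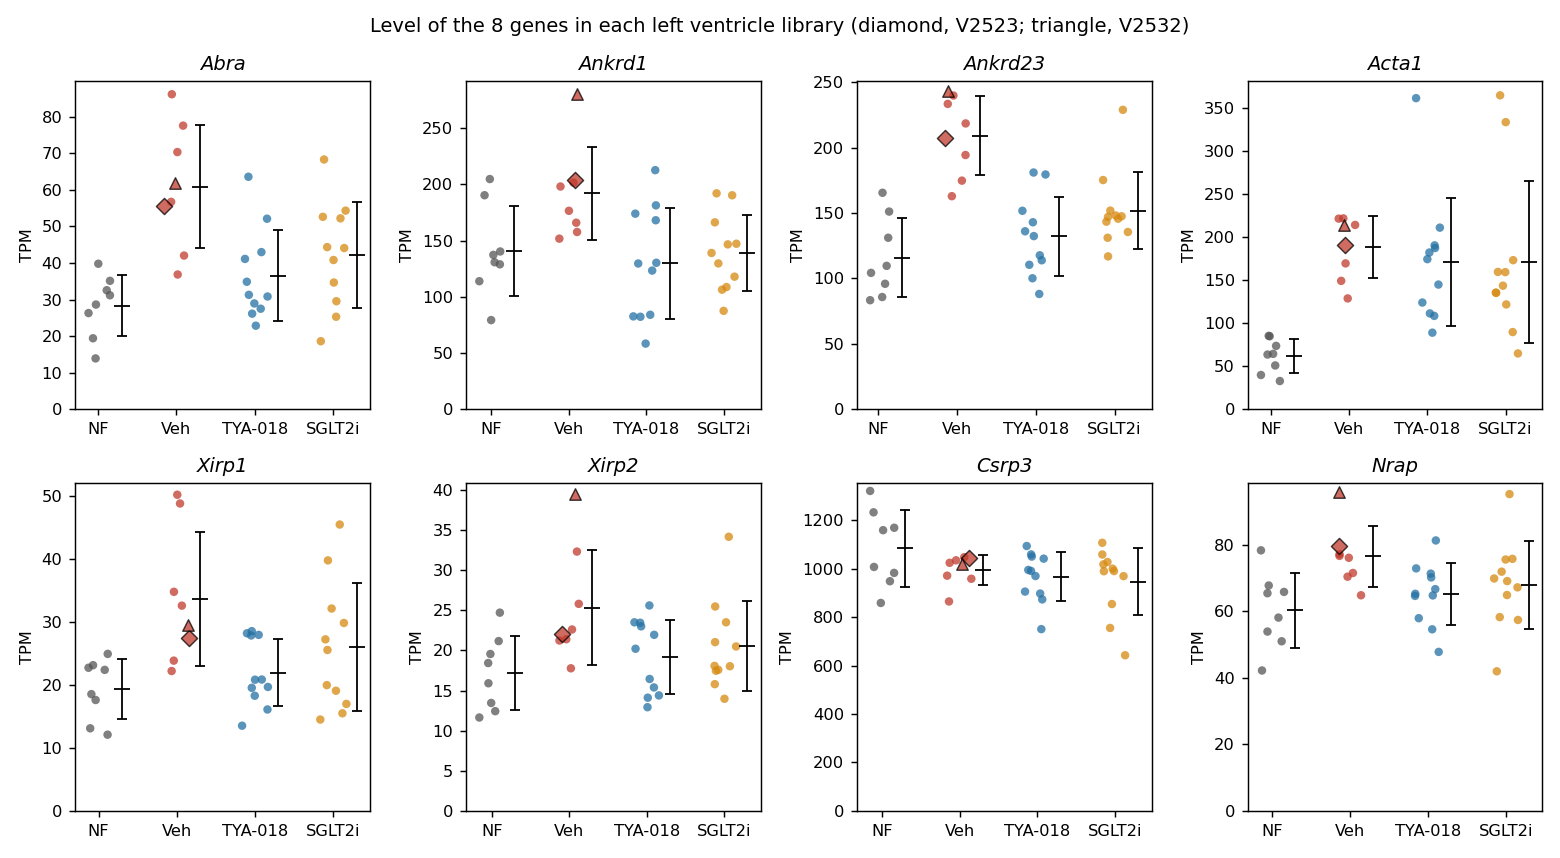
Level of each gene in every library, in TPM on a linear axis from 0. Points are libraries of non_failing (NF) and of the HFpEF groups named by treatment on the horizontal axis, bars are mean ± SD, the diamond is V2523 and the triangle V2532. Acta1 is above the highest non_failing library in all 8 HFpEF+Veh and all 11 HFpEF+TYA-018 libraries, while Csrp3 stays between 643 and 1321 TPM throughout.

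The comparison of HFpEF+Veh with non_failing asks how the disease model changed these genes. Acta1, Abra and Ankrd23 rose, so 3 of the 8 genes were called higher, where 3.15% of all tested genes were called in either direction and 1.77% were called higher. The threshold for a call was 0.05 on the p-value of the edgeR quasi-likelihood test (two-sided) after Benjamini-Hochberg adjustment over all 13765 genes. The median log2 fold change of the 8 genes was 0.63 and that of all tested genes 0.01, with 7 of 8 positive and Csrp3 negative.

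Acta1 showed the clearest separation. Its level ranged from 32.7 to 85.1 TPM (median 63.9) in non_failing and from 129 to 222 TPM (median 202) in HFpEF+Veh. The groups did not overlap, as was the case for 0.581% of the tested genes. The means were 61.8 ± 19.5 TPM (SD, n = 8) and 188 ± 35.7 (SD, n = 8), a ratio of 3.05, and the log2 fold change was 1.48 (SE 0.28, adjusted p 0.00141). Without V2523 and V2532 it was 1.45 (adjusted p 0.00266), and all 6 remaining libraries were above every non_failing library. V2532, with its skeletal muscle transcripts, held 213 TPM of Acta1 and was not the highest of its group. Cardiac alpha-actin, Actc1, was at -0.05 (SE 0.18, adjusted p 0.920), and smooth muscle actin, Acta2, had mean levels of 35.9 ± 11.0 and 65.2 ± 25.2 TPM (SD, n = 8 each) without passing the test.

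Abra, the activator of SRF signalling, ranged from 13.9 to 39.8 TPM (median 29.9) in non_failing and from 36.8 to 86.1 TPM (median 59.3) in HFpEF+Veh. Only the vehicle library V2521 fell within the non_failing range, so 7 of 8 were above it. On the log2 scale the difference was 1.06 (SE 0.23, adjusted p 0.00633), and it was 1.09 (adjusted p 0.00673) without V2523 and V2532.

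Among the titin-bound ankyrin repeat proteins, Ankrd23 rose and Ankrd1 did not pass the test. Ankrd23 ranged from 83.4 to 166 TPM (median 107) in non_failing and from 163 to 243 TPM (median 213) in HFpEF+Veh, with 7 of 8 vehicle libraries above the non_failing range. Its log2 fold change was 0.74 (SE 0.15, adjusted p 0.00315), and 0.69 (adjusted p 0.00756) without V2523 and V2532. Ankrd1 ranged from 79.3 to 205 TPM (median 134) in non_failing and from 152 to 281 TPM (median 187) in HFpEF+Veh. The ranges overlapped widely, and V2532 alone was above the non_failing range. For Ankrd1 the log2 difference was 0.32 (SE 0.23, adjusted p 0.535), and it was 0.16 (adjusted p 0.722) without V2523 and V2532. Whether the skeletal muscle transcripts of V2532 account for its high Ankrd1 was not tested.

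The Xin genes lay near the threshold. Xirp1 ranged from 12.1 to 24.96 TPM (median 20.5) in non_failing and from 22.2 to 50.3 TPM (median 31.1) in HFpEF+Veh, and 6 of 8 vehicle libraries were above the non_failing range. For Xirp1 the log2 difference was 0.74 (SE 0.22, adjusted p 0.0592). It passed the threshold without V2523 and V2532 (0.82, adjusted p 0.0316), and also when V2521, V2523 or V2529 of HFpEF+Veh or V2562, V2566 or V2571 of HFpEF+SGLT2i was left out, with adjusted p-values of 0.0405 to 0.0489. Xirp2 ranged from 11.6 to 24.7 TPM (median 17.2) in non_failing and from 17.8 to 39.5 TPM (median 22.3) in HFpEF+Veh, where V2532 was again the highest and 3 of 8 libraries exceeded the non_failing range. For Xirp2 it was 0.51 (SE 0.16, adjusted p 0.0631) and 0.45 (adjusted p 0.0849) without V2523 and V2532. Xirp2 passed when V2501 of non_failing, V2521 or V2523 of HFpEF+Veh or V2562 of HFpEF+SGLT2i was left out, with adjusted p-values of 0.0268 to 0.0466.

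The structural genes Nrap and Csrp3 did not pass the test. Nrap ranged from 42.2 to 78.3 TPM (median 61.8) in non_failing and from 64.8 to 95.9 TPM (median 76.4) in HFpEF+Veh, with V2532 highest. All 8 vehicle libraries were above the non_failing mean, but the log2 fold change was 0.22 (SE 0.13, adjusted p 0.415) and 0.13 (adjusted p 0.589) without V2523 and V2532. Csrp3 ranged from 859 to 1321 TPM (median 1083) in non_failing and from 865 to 1048 TPM (median 1022) in HFpEF+Veh. Csrp3 was the single gene of the 8 with a negative log2 difference, -0.23 (SE 0.09, adjusted p 0.199), and all 8 vehicle libraries were below the non_failing mean. Without V2523 and V2532 it was -0.23 (adjusted p 0.162).

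Other cell type markers moved in the same comparison. Of 12 cardiomyocyte markers, 4 (Myl2, Myl3, Tnnt2 and Tnni3) were lower and none was at 0. Their summed level was 28550 to 39956 TPM in non_failing and 27712 to 32874 TPM in HFpEF+Veh, and the median log2 fold change of the list was -0.28. Of 8 fibroblast markers, 2 (Lum and Pdgfra) were higher, with sums of 209 to 323 TPM in non_failing and 284 to 671 TPM in HFpEF+Veh. Of 14 fast skeletal muscle markers 8 were tested, with Myl1, Atp2a1 and Tnnt3 higher and Eno3 lower, and the sums were 420 to 631 TPM in non_failing and 396 to 569 TPM in HFpEF+Veh, most of it Eno3, which the ventricle itself expresses. Myh4, a defining fast skeletal marker, was at 0.00 TPM at the median of HFpEF+Veh. Of the remaining lists, Dkk3 and Bmp10 were called higher among 6 tested atrial markers, Abcc9 and Rgs5 were called lower among 8 markers of pericytes and smooth muscle, and edgeR called 0 of 8 endothelial, 0 of 7 macrophage, 0 of 12 hepatocyte and 0 of 5 erythrocyte markers, with 0, 1, 1 and 5 at an unadjusted p under 0.05. The atrial calls were at low levels. Bmp10 had medians of 0.0081 TPM in non_failing and 0.037 TPM in HFpEF+Veh, and Dkk3 of 0.494 and 1.20 TPM. Of the 6 tested atrial markers, 4 had positive and 2 negative differences. Erythrocyte sums were 3786 to 8147 TPM in non_failing and 5780 to 41874 TPM in HFpEF+Veh. When V2523 and V2532 were left out, all 12 hepatocyte markers were called lower (median -4.34) and all 5 erythrocyte markers higher (median 1.53), Pln joined the cardiomyocyte markers called lower, Mrc1 was called higher among the macrophage markers and Acta2 among those of smooth muscle, and Atp2a1, Tnnt3 and Bmp10 were no longer called. The part of these shifts in the differences of the 8 genes was not tested.

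**Figure D2:**
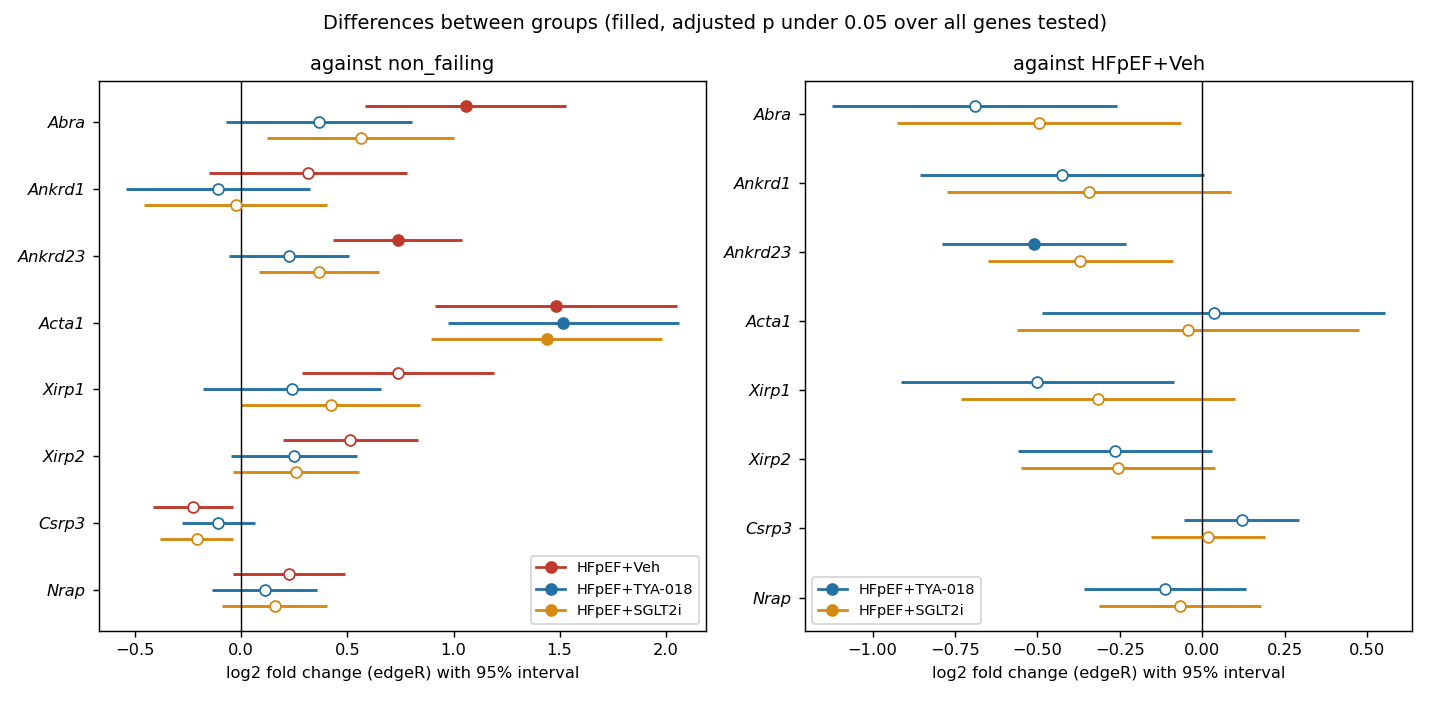
Log2 fold change of each gene from the edgeR fit, with 95% intervals, against non_failing (left) and against HFpEF+Veh (right). Filled points passed an adjusted p of 0.05. Acta1 is filled in all 3 HFpEF groups against non_failing, at 1.44 to 1.52, and its intervals against HFpEF+Veh span 0, while Ankrd23 in HFpEF+TYA-018 is the single filled point on the right.

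The comparison of HFpEF+TYA-018 with HFpEF+Veh asks what HDAC6 inhibition changed within the disease model. Ankrd23 fell, so 1 of the 8 genes was called, where 1.93% of all tested genes were called in either direction and 1.10% were called lower. The median log2 fold change was -0.35 for the 8 genes and -0.01 for all tested genes. HFpEF+Veh is the control in this comparison and the tested group in the preceding one, so its values enter both with opposite signs. All 12 hepatocyte markers were lower in HFpEF+TYA-018 and in HFpEF+SGLT2i than in HFpEF+Veh, where V2523 held 1352 TPM of them and the treated libraries 0.601 to 8.11 TPM. Of the fast skeletal muscle markers, 2 of 8 tested were lower in HFpEF+TYA-018 and 3 of 8 in HFpEF+SGLT2i, and none of the 12 cardiomyocyte markers was called in either by edgeR, with 5 and 0 at an unadjusted p under 0.05. When V2523 and V2532 were left out, edgeR called 0 of the 12 hepatocyte and 0 of the 8 fast skeletal markers in either treated group, with 8 and 1 at an unadjusted p under 0.05 in HFpEF+TYA-018 and 2 and 2 in HFpEF+SGLT2i.

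Of the remaining marker lists, edgeR called 0 genes in either drug group against HFpEF+Veh, with or without V2523 and V2532. All 5 erythrocyte markers had negative log2 differences in HFpEF+SGLT2i, each at an unadjusted p under 0.05, with a median of -0.88 (-1.17 without the pair, again 5 at an unadjusted p under 0.05). In HFpEF+TYA-018 all 5 were negative as well, with a median of -0.12 (-0.37 without the pair) and 0 at an unadjusted p under 0.05. Erythrocyte sums were 4720 to 16037 TPM in HFpEF+SGLT2i and 4811 to 22934 TPM in HFpEF+TYA-018, against 5780 to 41874 TPM in HFpEF+Veh. In HFpEF+TYA-018 all 8 fibroblast markers (median -0.23, 3 at an unadjusted p under 0.05) and all 8 endothelial markers (median -0.13, 2 at an unadjusted p under 0.05) had negative differences, and the medians were -0.28 and -0.24 without the pair, with 5 and 2 at an unadjusted p under 0.05. In HFpEF+SGLT2i it was 7 of 8 fibroblast markers (median -0.21, 3 at an unadjusted p under 0.05) and 4 of 8 endothelial markers (median -0.00, 0 at an unadjusted p under 0.05), with medians of -0.25 and -0.07 without the pair, and 3 and 1 at an unadjusted p under 0.05. Among 6 atrial, 8 pericyte and smooth muscle and 7 macrophage markers, 1, 1 and 0 were at an unadjusted p under 0.05 in HFpEF+TYA-018 and 2, 0 and 0 in HFpEF+SGLT2i. Without the pair these were 2, 1 and 1 in HFpEF+TYA-018 and 2, 1 and 0 in HFpEF+SGLT2i. The part of these values in the differences of the 8 genes was not tested.

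In HFpEF+TYA-018, Ankrd23 ranged from 88.1 to 181 TPM (median 132), against 163 to 243 TPM in HFpEF+Veh. All 11 treated libraries were below the vehicle mean and 9 were below the whole vehicle range, with V2548 and V2570 inside it. In log2 units the difference was -0.51 (SE 0.14, adjusted p 0.0412). This call was lost without V2523 and V2532, at -0.46 (adjusted p 0.0934), and when any of 13 of the 38 libraries was left out, with adjusted p-values of 0.0518 to 0.0862. Those libraries were V2523, V2526, V2527, V2528 and V2532 of HFpEF+Veh and V2543, V2547, V2549, V2550, V2551, V2552, V2555 and V2559 of HFpEF+TYA-018. The size of the difference stayed between -0.57 and -0.46 over these 38 fits.

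Abra had the largest difference of the 8 genes without passing the threshold. Its level in HFpEF+TYA-018 was 22.8 to 63.6 TPM (median 31.3), 10 of 11 libraries were below the vehicle mean, and 7 were below the whole vehicle range. This difference was -0.69 on the log2 scale (SE 0.21, adjusted p 0.0779) and -0.72 (adjusted p 0.0934) without V2523 and V2532. It passed when V2521 of HFpEF+Veh (adjusted p 0.0370) or V2548 of HFpEF+TYA-018 (adjusted p 0.0400) was left out. V2548 held the highest Abra of the treated group and V2521 the lowest of the vehicle group.

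Xirp1 ranged from 13.5 to 28.6 TPM (median 20.9) in HFpEF+TYA-018, and all 11 libraries were below the vehicle mean. Its log2 fold change was -0.50 (SE 0.20, adjusted p 0.184), with an unadjusted p of 0.0193. Ankrd1 ranged from 58.4 to 213 TPM (median 130) and differed by -0.43 (SE 0.21, adjusted p 0.292), which was -0.26 (adjusted p 0.513) without V2523 and V2532. The Xirp2 level was 12.9 to 25.6 TPM (median 20.2), at -0.27 (SE 0.14, adjusted p 0.340), and the Nrap level was 47.8 to 81.3 TPM (median 65.3), at -0.11 (SE 0.12, adjusted p 0.659). These 4 genes were lower on average than in HFpEF+Veh without passing the test. Without V2523 and V2532, Xirp1 was at -0.58 (adjusted p 0.143), Xirp2 at -0.20 (adjusted p 0.449) and Nrap at -0.014 (adjusted p 0.965).

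Acta1 was as high in HFpEF+TYA-018 as in HFpEF+Veh within a wide interval. It ranged from 88.8 to 361 TPM (median 174), so that 4 libraries were below the vehicle range and V2570 was above it. The fitted difference was 0.03 (SE 0.26, adjusted p 0.961), with a 95% interval of -0.48 to 0.55. Without V2523 and V2532 it was 0.071 (adjusted p 0.910). The sign was not fixed, since with TPM in limma it was -0.21. The coefficient of variation of Acta1 was 43.6% here, against 19.0% in HFpEF+Veh and 31.6% in non_failing. Csrp3 ranged from 750 to 1094 TPM (median 991) in HFpEF+TYA-018, at a difference of 0.12 (SE 0.09, adjusted p 0.488), and 0.13 (adjusted p 0.445) without V2523 and V2532. The sign of Csrp3 turned to -0.036 in limma on TPM and to -0.0084 with scaling by library size alone, a scaling that moved the median of all genes to -0.14.

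**Figure D3:**
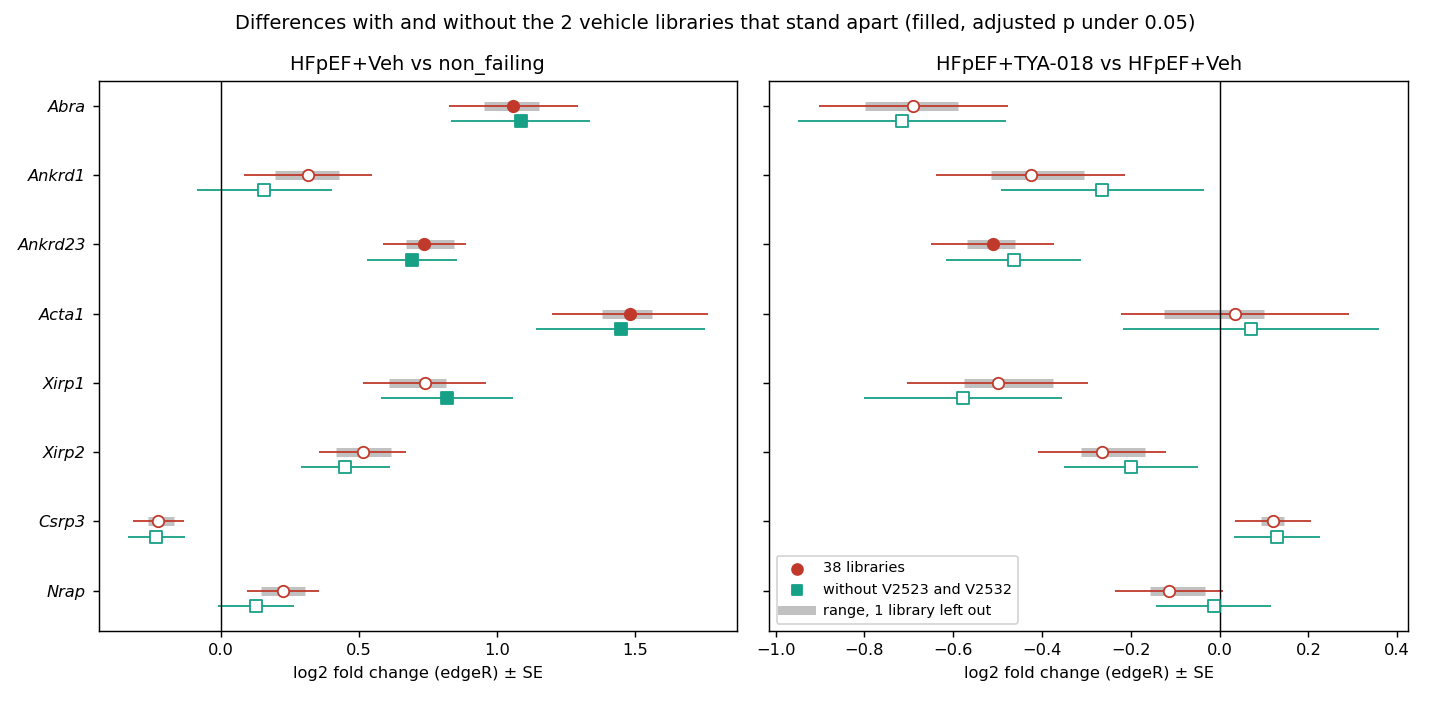
Log2 fold change ± SE of each gene with all 38 libraries (circles) and without V2523 and V2532 (squares), and the range over fits that left out 1 library (grey), for HFpEF+Veh against non_failing (left) and HFpEF+TYA-018 against HFpEF+Veh (right). Filled symbols passed an adjusted p of 0.05. On the left Xirp1 becomes filled without the pair (0.82), and on the right Ankrd23 becomes open (-0.46).

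The comparison of HFpEF+SGLT2i with HFpEF+Veh asks the same of the reference drug. None of the 8 genes was called by edgeR, where 0.850% of all tested genes were. At an unadjusted p under 0.05 there were 2 (Ankrd23 and Abra), and DESeq2 and limma on TPM called 0 as well. Log2 differences were negative for 7 of 8 genes, with a median of -0.29 against 0.01 for all tested genes.

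Ankrd23 ranged from 117 to 229 TPM (median 147) in HFpEF+SGLT2i. It was below the vehicle range in 9 of 11 libraries, and V2562 was the highest. Its log2 fold change was -0.37 (SE 0.14, adjusted p 0.272), with a 95% interval of -0.65 to -0.09. Abra ranged from 18.6 to 68.3 TPM (median 44.1), with 4 libraries below the vehicle range, and differed by -0.50 (SE 0.21, adjusted p 0.391). Without V2523 and V2532 these were -0.33 (adjusted p 0.278) for Ankrd23 and -0.53 (adjusted p 0.260) for Abra. Both genes therefore lay between the non_failing and the HFpEF+Veh levels without a called difference from either group.

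The other members varied widely under empagliflozin. Ankrd1 ranged from 87.5 to 192 TPM (median 139), with 8 of 11 libraries below the vehicle range, at a log2 difference of -0.34 (SE 0.21, adjusted p 0.612). Xirp1 ranged from 14.5 to 45.5 TPM (median 25.6) and Xirp2 from 14.0 to 34.2 TPM (median 18.1), at -0.32 (SE 0.21, adjusted p 0.636) and -0.26 (SE 0.14, adjusted p 0.572). Library V2562 held the highest level of Abra, Ankrd1, Ankrd23, Xirp1, Xirp2, Csrp3 and Nrap in this group, but not of Acta1. Csrp3 ranged from 643 to 1107 TPM (median 990) and Nrap from 42.0 to 95.2 TPM (median 69.1), with the lowest value of both in V2571. Their log2 fold changes were 0.02 (SE 0.09) and -0.07 (SE 0.12), and the sign of the latter turned to 0.028 without V2523 and V2532. The same fit gave -0.19 (adjusted p 0.703) for Ankrd1, -0.40 (adjusted p 0.359) for Xirp1, -0.20 (adjusted p 0.515) for Xirp2 and 0.022 (adjusted p 0.927) for Csrp3.

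Acta1 in HFpEF+SGLT2i ranged from 64.7 to 364 TPM (median 143). V2564 and V2566, at 333 and 364 TPM, were above the vehicle range and 3 libraries were below it, so the coefficient of variation was 54.8%. Against HFpEF+Veh its log2 difference was -0.04 (SE 0.26, adjusted p 0.974), with a 95% interval of -0.56 to 0.48, and -0.011 (adjusted p 0.988) without V2523 and V2532. For V2564 and V2566, the Ankrd1 levels, 190 and 166 TPM, were the highest of the group after that of V2562, while V2566 also held 14.5 TPM of Xirp1, the lowest of the group.

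Between the drugs, no gene was called by edgeR (0.00% of those tested, with 1821 at an unadjusted p under 0.05), and so none of the 8. DESeq2 called 184 genes and limma on TPM 0, and these also included none of the 8. The log2 fold changes of HFpEF+TYA-018 against HFpEF+SGLT2i lay between -0.20 (Abra) and 0.10 (Csrp3), and the lowest adjusted p was 0.637. The 95% interval was -0.59 to 0.20 for Abra, -0.40 to 0.12 for Ankrd23, -0.57 to 0.20 for Xirp1 and -0.40 to 0.55 for Acta1, so differences of these sizes were not excluded. Doses differed, at 15 mg/kg of TYA-018 and 10 mg/kg of empagliflozin. Of the marker lists, all 5 erythrocyte markers were at positive values (median 0.76, 3 at an unadjusted p under 0.05) and 7 of 8 endothelial markers at negative ones (median -0.12, 2 at an unadjusted p under 0.05). Of the 12 cardiomyocyte markers 10 were at positive values (median 0.09, 3 at an unadjusted p under 0.05). All 12 hepatocyte markers were at negative values (median -0.65, 0 at an unadjusted p under 0.05), and the part of these lists in the values of the 8 genes was not tested.

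Against non_failing, Acta1 alone of the 8 genes stayed called in both treated groups. In HFpEF+TYA-018 this was 1 of 8 genes, where 7.39% of tested genes were called and 4.00% were called higher, and in HFpEF+SGLT2i it was 1 of 8, where 6.45% were called and 3.46% were called higher. A count of 1 of 8 is little above these shares, and nothing is read from it about the 8 genes as a group. The log2 fold change of Acta1 was 1.52 (SE 0.27, adjusted p 0.000274) in HFpEF+TYA-018 and 1.44 (SE 0.27, adjusted p 0.000531) in HFpEF+SGLT2i. All 11 HFpEF+TYA-018 libraries were above the highest non_failing library, a separation seen for 0.872% of tested genes in either direction. Of the HFpEF+SGLT2i libraries 10 of 11 were above it, and V2574 at 64.7 TPM was inside the non_failing range. Both calls held when any of the 38 libraries was left out, and without V2523 and V2532 (1.52 and 1.44).

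The other 7 genes did not pass against non_failing under either drug. Abra was at a log2 difference of 0.37 (SE 0.22, adjusted p 0.330) in HFpEF+TYA-018 and 0.56 (SE 0.22, adjusted p 0.122) in HFpEF+SGLT2i. Ankrd23 was at 0.23 (SE 0.14, adjusted p 0.360) and 0.37 (SE 0.14, adjusted p 0.116), with all 11 HFpEF+SGLT2i libraries above the non_failing mean. The latter passed when V2501 of non_failing was left out, at 0.47 (adjusted p 0.0321). Xirp1 was at 0.24 and 0.42, Xirp2 at 0.25 and 0.26, Nrap at 0.11 and 0.16, Ankrd1 at -0.11 and -0.03 and Csrp3 at -0.11 and -0.21, with adjusted p-values of 0.145 or more. The 3 comparisons share the non_failing libraries, so their values are side by side and not independent. In HFpEF+SGLT2i, 5 of 12 cardiomyocyte markers were lower than in non_failing, with sums of 21811 to 32859 TPM, and in HFpEF+TYA-018 it was 1 of 12, with sums of 28053 to 34334 TPM. Hepatocyte markers were called lower in 12 of 12 in HFpEF+TYA-018 (median -6.24) and in 11 of 12 in HFpEF+SGLT2i (median -5.55). Both groups had higher Myl1, of the skeletal list, and Bmp10, of the atrial list. In each group, though, 6 of the 8 tested skeletal markers had negative differences, with list medians of -0.16 in HFpEF+TYA-018 and -0.09 in HFpEF+SGLT2i. Of the 6 tested atrial markers, 4 were positive and 2 negative in each group. Bmp10 was near 0, with medians of 0.0081 TPM in non_failing, 0.056 in HFpEF+TYA-018 and 0.103 in HFpEF+SGLT2i. In HFpEF+TYA-018 the fibroblast marker Lum, the erythrocyte marker Hbb-bs and Acta2 were higher and the pericyte marker Rgs5 lower, and in HFpEF+SGLT2i the fibroblast marker Pdgfra was higher and Tcf21 lower. No endothelial or macrophage marker was called in either group by edgeR, with 0 at an unadjusted p under 0.05. The part of these shifts in the values of the 8 genes was not tested.

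The 8 genes did not vary as a single block from heart to heart. The Pearson correlation of log2 CPM (counts per 1000000) was computed for the 28 pairs over 38 libraries after the group means were removed. It was positive for all 28, from 0.05 to 0.84 with a median of 0.51. The points are libraries, so each pair shares the library's depth and cell composition. Xirp2 with Nrap (0.84), Ankrd1 with Nrap (0.80), Ankrd1 with Xirp2 (0.79) and Csrp3 with Nrap (0.77) were among the higher values. Over all groups, Abra and Xirp1 were at 0.78 with each other and at most 0.51 and 0.41 with the other 6 genes, both with Ankrd23. In non_failing alone both followed those 6 genes more closely, Abra at 0.63 to 0.79 and Xirp1 at 0.44 to 0.84. Abra with Ankrd23 was at 0.79 in non_failing, 0.51 in HFpEF+Veh, 0.12 in HFpEF+TYA-018 and 0.74 in HFpEF+SGLT2i. Acta1 followed Ankrd1 (0.76) and Xirp2 (0.63), and over all groups was near 0 with Abra (0.11) and Xirp1 (0.05). Without the 2 libraries farthest from the median of Abra, Abra with Acta1 turned to -0.18 over all groups. By group, Acta1 with Abra was at 0.67 in non_failing, 0.05 in HFpEF+Veh, -0.36 in HFpEF+TYA-018 and 0.17 in HFpEF+SGLT2i. With Xirp1 these were 0.44, 0.12, -0.11 and -0.03. Differences between the groups were not tested.

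Over all groups, the values were much the same without V2523 and V2532, at 0.83 for Xirp2 with Nrap, 0.78 for Abra with Xirp1 and 0.76 for Ankrd1 with Acta1. Without the 2 libraries farthest from the median of the first-named gene of each pair they were 0.79, 0.74 and 0.73. Libraries extreme in the second gene alone were kept. Within the groups, Abra with Xirp1 was at 0.90 in non_failing, 0.92 in HFpEF+Veh and 0.91 in HFpEF+SGLT2i, but at 0.27 in HFpEF+TYA-018. This difference between groups was not tested. Among the HFpEF+TYA-018 libraries, V2555 held the lowest Xirp1 (13.5 TPM) and an Abra level of 52.1 TPM, exceeded there only by V2548.

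**Figure D4:**
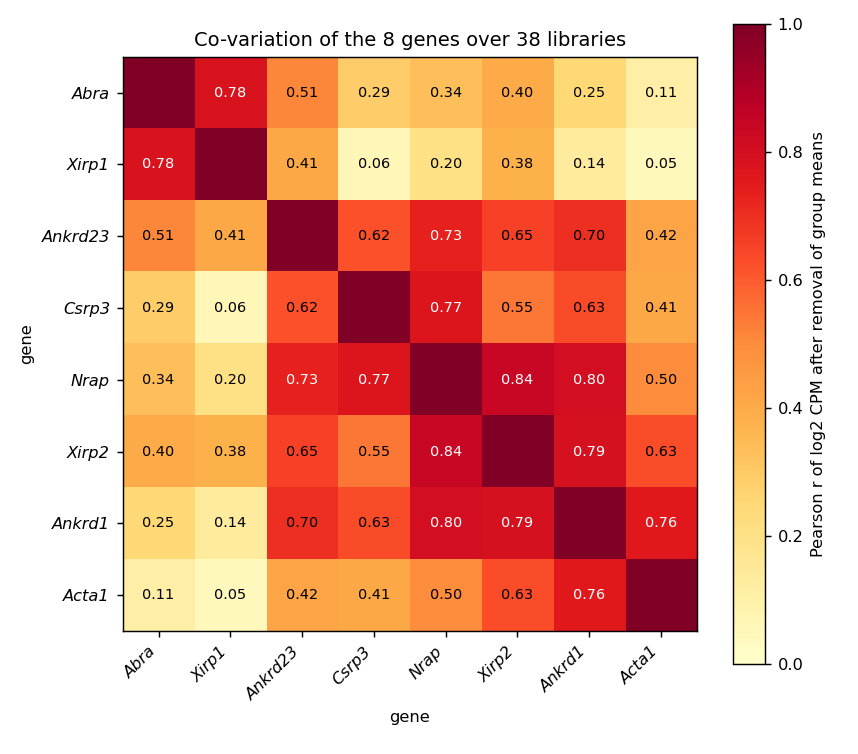
Pearson correlation of log2 CPM between the 8 genes over 38 libraries after removal of group means, from 0 (pale) to 1 (dark). Abra and Xirp1 pair with each other (0.78), while the values among Ankrd23, Csrp3, Nrap, Xirp2 and Ankrd1 run from 0.55 to 0.84, and the highest value of Acta1 is with Ankrd1 (0.76).

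Genes outside the 8 that varied most like them were looked up by the same measure among 10915 genes, as a description. For Abra these were Otud1 (0.78) and Ier5 (0.76), and for Xirp1 they were Otud1 (0.77) and Atf3 (0.73), where Ier5 and Atf3 are stress-induced early genes. Ankrd1 was most like Myl12a (0.83), a myosin light chain, and Atp8a2 (0.82). Xirp2 was most like Enah (0.87), an actin regulator, and Ccser2 (0.83). Nrap was most like Kremen1 (0.89) and the small heat shock protein gene Hspb7 (0.87), and Ankrd23 was most like Rcan1 (0.72), an inhibitor of calcineurin, and Kremen1 (0.72). Csrp3 was most like Mrps28 (0.87) and Ndufs3 (0.87), genes of the mitochondrial ribosome and of complex I. Acta1 had the lowest top values, with Haus8 (0.70) and Dact3 (0.69).

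The effective length of each gene moved little at the group medians and more in single libraries. Relative to the other genes of a library, group medians were between 0.972 (Ankrd1 in HFpEF+Veh) and 1.02 (Abra in non_failing) over the 8 genes. Xirp2 had the widest range over libraries, from 0.913 in V2562 to 1.14 in V2555, and V2550, V2551 and V2552 of HFpEF+TYA-018 were at 1.11, 1.09 and 1.08. In bases, however, Xirp2 was at 12495 in V2562 and 12558 in V2555. Abra, which has 1 annotated transcript, also ranged from 0.922 in V2549 to 1.08 in V2530. A shift in these relative lengths therefore does not show that other transcripts of a gene were used. An edgeR fit with these lengths as an offset called the same 3 genes in HFpEF+Veh against non_failing, and Ankrd23 in HFpEF+TYA-018 against HFpEF+Veh.

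Genes that work with these 8 were counted by list, beside the share of all tested genes called (3.15% in HFpEF+Veh against non_failing, 1.93% and 0.850% in HFpEF+TYA-018 and HFpEF+SGLT2i against HFpEF+Veh, 7.39% and 6.45% against non_failing). Of 32 partners at the Z-disc and titin, HFpEF+Veh differed from non_failing in 2: Capn3, a titin-bound protease, was higher at 0.61 (SE 0.15, adjusted p 0.0141) and Myom2, which links titin and myosin at the M-band, was lower at -0.59 (SE 0.16, adjusted p 0.0379). The list's median was -0.07, against 0.01 for all tested genes. Both stayed called without V2523 and V2532 (0.52 and -0.73), where Myoz2 was called lower as well. In HFpEF+TYA-018 against HFpEF+Veh 1 of 32 was called, Synpo2l, a Z-disc protein, at -0.51 (SE 0.12, adjusted p 0.0176; -0.54 and 0.0450 without V2523 and V2532), and in HFpEF+SGLT2i against HFpEF+Veh 0 were called by edgeR, with 2 at an unadjusted p under 0.05. Of those, Synpo2l was at -0.36 (SE 0.12, adjusted p 0.188) and Des, which encodes desmin, at 0.26 (SE 0.09, adjusted p 0.199). Against non_failing, Capn3 was higher in HFpEF+TYA-018 (0.62) and HFpEF+SGLT2i (0.62), Myom2 was lower in HFpEF+TYA-018 (-0.59), and in HFpEF+SGLT2i Flnc, or filamin C, was higher (0.52) and Tcap, which caps titin, was lower (-0.36).

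Of 24 genes of the intercalated disc and costamere, Dsc2, a desmosomal cadherin, was lower in HFpEF+Veh than in non_failing, at -0.48 (SE 0.11, adjusted p 0.00669), with Cxadr, Dsg2 and Gja1 called lower as well without V2523 and V2532, and none was called under either drug against HFpEF+Veh by edgeR, with 1 and 0 at an unadjusted p under 0.05. The lowest p-values there were those of Vcl, or vinculin (-0.33, adjusted p 0.193), and Parva (-0.13, adjusted p 0.299) in HFpEF+TYA-018 and of Tln2 (0.24, adjusted p 0.532) and Vcl (-0.20, adjusted p 0.662) in HFpEF+SGLT2i. Gja1, the connexin of cardiac gap junctions, was lower than in non_failing in HFpEF+TYA-018 (-0.44, adjusted p 0.0359) and HFpEF+SGLT2i (-0.63, adjusted p 0.00219), and Dsc2 was lower in HFpEF+SGLT2i (-0.37, adjusted p 0.0170). The list medians were -0.06 in HFpEF+Veh, -0.11 in HFpEF+TYA-018 and -0.11 in HFpEF+SGLT2i against non_failing.

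Of the actin and SRF pathway downstream of Abra, 22 of 24 listed genes were tested. Against non_failing Myocd, the SRF coactivator myocardin, was lower in HFpEF+Veh at -0.69 (SE 0.19, adjusted p 0.0310), in HFpEF+TYA-018 at -0.68 (adjusted p 0.0103) and in HFpEF+SGLT2i at -0.67 (adjusted p 0.0135). No gene of this list was called higher in HFpEF+Veh, and Acta2 was once V2523 and V2532 were left out, where Myocd was at -0.78 (adjusted p 0.0103). Acta2 was higher in HFpEF+TYA-018 (0.67, adjusted p 0.0438), and in HFpEF+SGLT2i Mkl2, a myocardin-related coactivator, was higher (0.36, adjusted p 0.0204) and Actb lower (-0.38, adjusted p 0.0265). None was called against HFpEF+Veh by edgeR, with 6 at an unadjusted p under 0.05 in each treated group. Among these the immediate early gene Egr1 was at -0.38 (adjusted p 0.132) in HFpEF+TYA-018 and -0.45 (adjusted p 0.133) in HFpEF+SGLT2i and Junb at -0.61 (adjusted p 0.119) in HFpEF+SGLT2i.

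Of 15 tested YAP and TAZ targets and partners, Vgll2, a cofactor of TEAD factors, was higher than non_failing in all 3 HFpEF groups, at 1.70 (SE 0.37, adjusted p 0.00595), 1.47 (SE 0.35, adjusted p 0.00721) and 1.27 (SE 0.35, adjusted p 0.0222) in the vehicle, TYA-018 and empagliflozin groups. Its levels were low, with means of 0.361 ± 0.161 TPM in non_failing (SD, n = 8) and 1.33 ± 0.711 TPM in HFpEF+Veh (SD, n = 8). The first of these differences was 1.74 (adjusted p 0.00663) without V2523 and V2532, where F3 was called lower. None of the list was called under either drug against HFpEF+Veh by edgeR, with 4 and 2 at an unadjusted p under 0.05. Ctgf, which encodes a secreted matrix-associated protein, was at -0.52 (adjusted p 0.103) and -0.39 (adjusted p 0.431), Vgll4 at -0.31 (adjusted p 0.168) in HFpEF+TYA-018 and Tead4 at -0.39 (adjusted p 0.355) in HFpEF+SGLT2i.

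Of 18 tested genes among other stress genes of cardiomyocytes, Gdf15, a stress-induced cytokine, rose in HFpEF+Veh from 2.22 ± 0.812 to 5.83 ± 1.76 TPM (SD, n = 8 each), at 1.28 (SE 0.27, adjusted p 0.00383), and Rcan1 rose at 0.54 (SE 0.15, adjusted p 0.0318). In HFpEF+TYA-018 against HFpEF+Veh 3 of 18 fell: Gdf15 at -0.92 (SE 0.24, adjusted p 0.0355), the natriuretic peptide gene Nppb at -0.86 (SE 0.22, adjusted p 0.0300) and the cytokine receptor gene Tnfrsf12a at -0.78 (SE 0.19, adjusted p 0.0252). These 3 calls were lost without V2523 and V2532, at -0.77 (adjusted p 0.0949) for Gdf15, -0.91 (adjusted p 0.0580) for Nppb and -0.80 (adjusted p 0.0580) for Tnfrsf12a, while Gdf15 (1.14) and Rcan1 (0.53) stayed called in HFpEF+Veh against non_failing and Myc was called higher. In HFpEF+SGLT2i 0 of 18 were called by edgeR, with 3 at an unadjusted p under 0.05, and Nppb was at -0.69 (adjusted p 0.156) and Gdf15 at -0.50 (adjusted p 0.473). Against non_failing, Ch25h was higher in HFpEF+TYA-018 (1.16) and the heat shock gene Hspa1a was lower in HFpEF+TYA-018 (-0.95) and HFpEF+SGLT2i (-0.87). The list medians were 0.06 for HFpEF+Veh against non_failing and -0.13 and -0.18 for HFpEF+TYA-018 and HFpEF+SGLT2i against HFpEF+Veh.

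Between HFpEF+TYA-018 and HFpEF+SGLT2i none of the genes of these 5 lists was called by edgeR, with 5 of the Z-disc, 3 of the disc, 1 of the SRF, 1 of the YAP and 3 of the stress list at an unadjusted p under 0.05. The lowest p-values were those of Flnc (-0.33, adjusted p 0.202) and Lmcd1 (-0.22, adjusted p 0.283) at the Z-disc and of Jup (-0.15, adjusted p 0.246) and Ctnnb1 (-0.35, adjusted p 0.339) at the intercalated disc. Mkl2 was at -0.34 (adjusted p 0.103) and Ablim3 at -0.23 (adjusted p 0.410) in the SRF list, and Vgll4 at -0.27 (adjusted p 0.308) and Amotl2 at -0.15 (adjusted p 0.486) in the YAP list. Among the stress genes Ier3 was at 0.33 (adjusted p 0.169) and Tnfrsf12a at -0.51 (adjusted p 0.196).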

How the data were processed

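Left ventricular RNA of 38 mice was measured by RNA-seq with a stranded polyA kit. Per the labels and the methods, the authors trimmed reads with fastp, used Salmon 1.6.0 on GRCm38 transcripts, and tximport gave gene values. In the deposited table of expected counts each value is an estimated number of reads and can hold a fraction. The deposited TPM values were scaled by the authors to 1000000 per library. A deposited signal table holds, in bases, the authors' effective length of each gene in each library. Salmon divides reads shared between similar genes by a model, so paralogs such as the actins are uncertain. Unmapped columns numbered 0.

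Expected counts were rounded, filtered with filterByExpr (13765 of 29564 genes) and scaled by TMM. The groups entered 1 edgeR model (version 4.0.16, R 4.3.3) without covariates and were compared by its quasi-likelihood test, and p-values were adjusted by Benjamini-Hochberg over all genes tested, with calls at 0.05. The study ranked genes on log2(TPM + 1), and limma 3.58.1 took that scale, and a pseudocount of 0.1, as alternatives. DESeq2 1.42.0, other scalings, a length offset, no filter, fits of only the groups compared, and fits without single libraries or V2523 and V2532 were the other alternatives. The lists were refitted without that pair after the data had been seen. The script was tested on simulated data. Log2 CPM for correlations used a prior count of 2. Mouse numbers differ between the groups, so no samples were paired. The tests judge differences between groups against the spread between mice. The sources differ on read length and on the genome label, which entered no test.

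The 8 genes, the lists and the tests were chosen with earlier results of these data known. All 8 genes are named with values. Of each pathway list, called genes were named (up to 4 per direction by p), or the 2 with the smallest p where none was called, and the 2 most similar genes per member. A gene of the SRF list that this rule names is not reported here. Lists covered Z-disc and titin, intercalated disc, SRF, YAP and other stress genes, and markers of cardiomyocytes, fast skeletal muscle, atrium, hepatocytes, fibroblasts, pericytes with smooth muscle, endothelial cells, macrophages and erythrocytes.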

Additional observations from a re-analysis of the deposited data

Results flagged for a closer look

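The highest Ankrd1 value of HFpEF+Veh, 281 TPM in V2532, stood apart from the other 7 libraries of its group, of which the nearest was 204 TPM. The gap was 0.599 of the whole range, above Dixon's critical value of 0.526 for 8 samples. Of 16 sets of values examined (8 genes in the groups of 8 mice) this was the single such case, and chance alone gives about 1 in 20. V2532 is also the library with fast skeletal muscle transcripts (Tnnt3 at 16.9 TPM against a group median of 0.568), and it held the highest Ankrd23 (243 TPM), Xirp2 (39.5 TPM) and Nrap (95.9 TPM) of HFpEF+Veh. It held the highest level of the cardiomyocyte markers Actc1, Ryr2, Pln and Atp2a2 in HFpEF+Veh too. The other cardiomyocyte markers listed were highest in other libraries of that group. The part of the skeletal muscle transcripts, or of these cardiomyocyte levels, in the Ankrd1 value was not tested.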

How the results depend on the processing

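Of 48 differences (8 genes in 6 comparisons), 34 kept their direction and their side of the threshold under every alternative run and 14 did not. In HFpEF+Veh against non_failing 3 genes were called, 5 with scaling by library size alone and 5 with DESeq2 (Xirp1 and Xirp2 added by each), 4 with limma at either pseudocount (Xirp1 added), and 3 to 5 when 1 library was left out. In HFpEF+TYA-018 against HFpEF+Veh 1 was called, 2 with library size alone and 2 with DESeq2 (Abra added by each), 0 in the fit of only these groups, 0 without V2523 and V2532, and 0 to 2 when 1 library was left out. Against non_failing 1 was called in HFpEF+SGLT2i, and 1 to 2 when 1 library was left out. Signs turned only for small differences. In HFpEF+TYA-018 against HFpEF+Veh, Acta1 was at -0.089 with library size alone, -0.21 in limma with either pseudocount and -0.0060 with the length offset, with a range of -0.12 to 0.10 when 1 library was left out, and Csrp3 was at -0.0084 with library size alone and -0.036 in limma with either pseudocount. In HFpEF+SGLT2i against HFpEF+Veh, Csrp3 was at -0.061 with library size alone and -0.064 in limma with either pseudocount, and Nrap was at 0.028 without V2523 and V2532. When 1 library was left out, Acta1 ranged from -0.20 to 0.041, Csrp3 from -0.0056 to 0.063 and Nrap from -0.14 to 0.013 there. In HFpEF+TYA-018 against HFpEF+SGLT2i such fits gave -0.079 to 0.24 for Acta1, -0.052 to 0.069 for Xirp2 and -0.11 to 0.022 for Nrap. In HFpEF+SGLT2i against non_failing Ankrd1 was at 0.012 in limma with either pseudocount and ranged from -0.12 to 0.081. Scaling by library size alone moved the median of all genes to -0.14 in HFpEF+TYA-018 against HFpEF+Veh, and limma with a pseudocount of 0.1 moved it to -0.12. The cause of these changes was not tested. The lowest count of any of the 8 genes was 780 reads, and no value was limited by a count near 0. No paired analysis was possible because mouse numbers differ in every group.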
